A study of Bos taurus with 12 samples.

Results

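Actins and tropomyosins are the protein polymers of the thin filament, and the genes described here are the 5 actins ACTA1, ACTC1, ACTA2, ACTB and ACTG1 and the 4 tropomyosins TPM1, TPM2, TPM3 and TPM4. They were chosen by name, and all 9 were found among the 18436 genes of the expression table. By gene name they held 13 of the 19739 m6A peaks listed for growing myoblasts and 15 of the 20790 peaks listed for myotubes. Bovine primary myoblasts (Qinchuan breed, newborn, longissimus dorsi muscle) were used, which the study's methods trace to a single animal. They were sampled at 80% confluence in growth medium with 20% fetal bovine serum (GM), or after 4 days in differentiation medium with 2% horse serum (DM). For DM the labels give 100% confluence. Each group had 3 input libraries of poly(A) RNA and 3 libraries immunoprecipitated with an antibody against N6-methyladenosine (m6A), so that 12 samples were made in all. Both media held penicillin and streptomycin, and no transgene or other drug is described for these libraries. GM and DM differed in serum, confluence and time together, which cannot be told apart here.

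Actin monomers polymerize into filaments, and tropomyosin dimers lie end to end along the filament, where they set which myosins and other partners can bind. ACTA1 and ACTC1 encode the skeletal and cardiac alpha-actins of the sarcomere, and embryonic and regenerating skeletal muscle also uses the cardiac form. ACTA2 encodes the smooth muscle alpha-actin of stress fibers, and ACTB and ACTG1 encode the cytoplasmic actins of all cells. TPM1 and TPM2 yield the main muscle alpha- and beta-tropomyosins, and TPM3 yields a slow muscle form. All 4 genes also make cytoskeletal forms by alternative promoters or splicing, and a single value per gene cannot separate the forms.

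Expression was read from the input libraries as FPKM, fragments per kilobase of transcript and per unit of mapped fragments, a level per length that can be compared between genes. The FPKM of all genes summed to between 415740 and 434458 in GM and between 386437 and 390827 in DM. Of 9 myogenic markers, MYH3, the embryonic myosin heavy chain, and CKM, muscle creatine kinase, rose in DM, from 273 to 659 and from 10.2 to 42.5 FPKM. MYF5, MYOD1 and PAX7, regulators of myogenic cells, fell, the last from 1.08 to 0.0624 FPKM. The other 4 markers were not called and were present in GM already. MYOG was at 197 FPKM in GM and 243 in DM, DES at 453 and 488.5, MYMK at 41.1 and 47.3, and CDH15 at 21.5 and 17.85. The 8 fibroblast markers summed to 16030 to 16190 FPKM in GM and 16870 to 17960 in DM. The collagens COL1A1, COL1A2 and COL3A1 held most of it, at 6791, 5757 and 2397 in GM and 7420, 5496 and 3135 in DM. TCF21, of the same list, was at 2.15 and 1.68. Of the 8 markers, 0 of 8 were called by limma, beside 11.9% of all tested genes. At a Benjamini-Hochberg adjusted p under 0.05 and any fold 3 were higher and 1, TCF21, was lower, beside 16.1% and 26.7%. An unadjusted p under 0.05 was reached by 4 of 8, beside 50.7%. The 7 listed smooth muscle and pericyte markers summed to 804 to 897 FPKM in GM and 703 to 778 in DM. Most of this sum came from ACTG2, at 612.5 in GM and 530 in DM, and CNN1, at 199 and 162. PDGFRB, at 28.2 and 33.5, and CSPG4, at 3.07 and 5.82, were higher in DM, and NOTCH3, at 2.13 and 0.854, was lower. MYH11, the defining smooth muscle myosin, had means of 0.282 and 0.529. Whether fibroblasts or smooth muscle cells were present, and their part in the values of the actins and tropomyosins, was not tested. In bulk RNA fewer cells of a type and less RNA per cell cannot be told apart.

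The cytoplasmic actin ACTB and the skeletal actin ACTA1 were called lower on differentiation on the deposited FPKM scale. These calls were lost as TPM although the direction was kept, and 0 of 9 genes were called higher on either scale. By less than 1.5-fold, TPM1 was higher in DM (limma, Benjamini-Hochberg adjusted p = 0.015, or 0.0029 as TPM). As TPM, so were TPM3 and TPM4 (limma, adjusted p = 0.043 and 0.011). The call asked for p under 0.05, before adjustment, together with more than a 1.5-fold difference, from limma on log2(FPKM + 1), and 2 of 9 genes were called lower, where 6.97% of the 12302 tested genes were called lower and 4.9% higher (11.9% in all). At a Benjamini-Hochberg adjusted p under 0.05 and any fold, 5 of 9 passed, beside 42.8% of all tested genes, and as TPM 7 of 9 passed, beside 40.9%. An unadjusted p under 0.05 was reached by 7 of 9 genes and by 50.7% of all tested genes. The libraries of GM and DM did not overlap for 7 of 9 genes, 5 with GM above DM and 2 with DM above GM. Over all tested genes 54.1% had ranges that did not overlap, 33.0% with GM above and 21.1% with DM above, so separation alone was common. The median difference was -0.39 on the log2 scale for the actins, 0.16 for the tropomyosins and -0.05 for all tested genes. Rescaling every library to the same sum (TPM) moved the median of all genes to 0.06. Values on both scales are therefore given for the 9 genes where a call depends on it. Genes of the partner and marker lists were called on the deposited FPKM only. Over all genes the deposited FPKM gave 603 calls higher and 858 lower, against 970 higher and 792 lower as TPM. The p-values measure the spread between cultures, since neither the labels nor the methods describe them as separate animals.

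**Figure D1:**
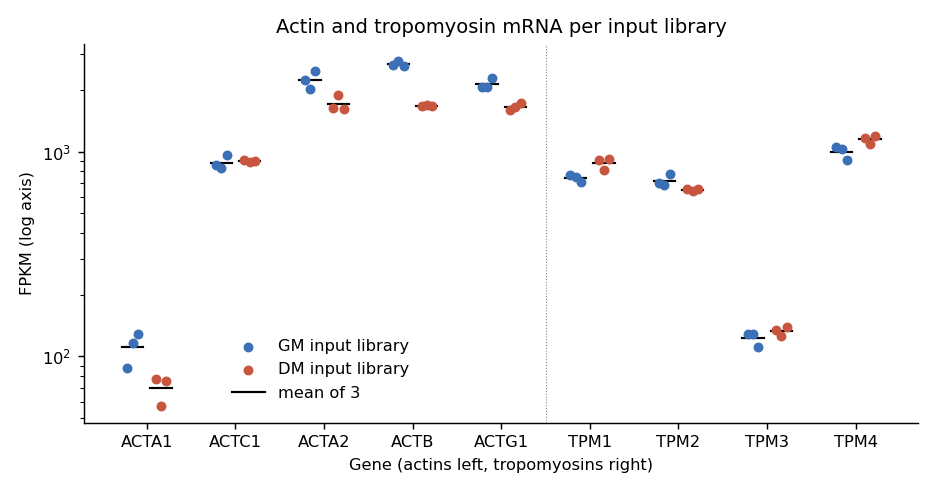
FPKM on a log axis of the 9 genes in the 3 GM and 3 DM input libraries, 1 point per library, with lines at the group means. ACTB, ACTA2 and ACTG1 stood highest, from 2026 to 2764 FPKM in GM and from 1593 to 1881 in DM, and ACTA1 and TPM3 stood lowest, from 57.3 to 139 over both groups.

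ACTB was the most abundant of the 9 genes in GM. Its gene lies at chr25:38799230-38802646 on the plus strand (ENSBTAG00000026199, build ARS-UCD1.2, as are all positions here). Its level was 2646, 2764 and 2606 FPKM in the GM libraries and 1672, 1695 and 1662 in the DM libraries. All 3 DM libraries lay below all GM libraries, and the means were 2672 ± 82.3 and 1676 ± 16.8 FPKM (SD, n = 3). ACTB fell by 0.67 on the log2 scale (SE 0.05, limma, Benjamini-Hochberg adjusted p = 3e-05), but as TPM the difference was -0.55 and short of the fold threshold. Among all genes of the table ACTB ranked between 5 and 9 in the GM libraries and between 13 and 14 in the DM libraries.

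ACTG1, the other cytoplasmic actin, lies at chr19:51259300-51262303 on the plus strand (ENSBTAG00000006189). It gave 2069, 2068 and 2283 FPKM in GM and 1593, 1645 and 1737 in DM. The groups did not overlap, and the log2 difference of -0.37 (SE 0.06, limma, Benjamini-Hochberg adjusted p = 0.0023) was below the 1.5-fold threshold. The ratio of ACTB to ACTG1 was 1.25 ± 0.10 in GM and 1.01 ± 0.05 in DM (SD, n = 3), so that the cytoplasmic actins stood at nearly equal FPKM in myotubes. A microRNA gene, bta-mir-3533, lies within ACTG1 on the same strand and was at 2.05 to 7.14 FPKM over the 6 libraries.

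The alpha-actins ACTA1 and ACTC1, which share a place in the sarcomere, differed in how they stood between the groups. ACTA1 lies at chr28:1400372-1403383 on the minus strand (ENSBTAG00000046332) and gave 87.3, 115 and 128 FPKM in GM and 76.9, 57.3 and 75.6 in DM. The lowest GM library was above the highest DM library, and the means were 110 ± 20.9 and 70.0 ± 11.0 FPKM (SD, n = 3). ACTA1 fell by 0.64 on the log2 scale (SE 0.16, limma, Benjamini-Hochberg adjusted p = 0.011), the least precise of the 9 estimates. The call was lost without GM replicate 3, at -0.53, without DM replicate 2, at -0.51, and as TPM, at -0.52, where the fold was short of 1.5 in each case.

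ACTC1 lies at chr10:30288637-30294046 on the minus strand (ENSBTAG00000005714) and gave 860, 828 and 962 FPKM in GM and 912, 885 and 896 in DM. The DM libraries lay within the range of the GM libraries, and the log2 difference was 0.03 (SE 0.07, limma, Benjamini-Hochberg adjusted p = 0.78), 0.15 as TPM and -0.02 without GM replicate 2. The cardiac form therefore exceeded the skeletal form in every library, with a ratio of ACTC1 to ACTA1 of 8.18 ± 1.46 in GM and 13.0 ± 2.07 in DM (SD, n = 3). The ratio was 7.17 to 9.85 in GM and 11.8 to 15.4 in DM, and the ranges did not overlap.

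ACTA2, the smooth muscle actin, lies at chr26:10626803-10679430 on the minus strand (ENSBTAG00000014614). It gave 2225, 2026 and 2473 FPKM in GM and 1638, 1881 and 1619 in DM. Every DM library was below every GM library, and the log2 difference of -0.39 (SE 0.09, limma, Benjamini-Hochberg adjusted p = 0.0096) did not reach 1.5-fold. With 1713 ± 146 FPKM in DM (SD, n = 3), ACTA2 overlapped with ACTB and ACTG1 there, and these 3 genes could not be ordered in myotubes beyond their spread. ACTG2, the enteric smooth muscle actin, which was no member of the set, gave 612 ± 33.6 FPKM in GM and 530 ± 33.3 in DM. Because the actin coding sequences are nearly alike, reads may be divided between these genes in a way that the deposited FPKM does not show.

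**Figure D2:**
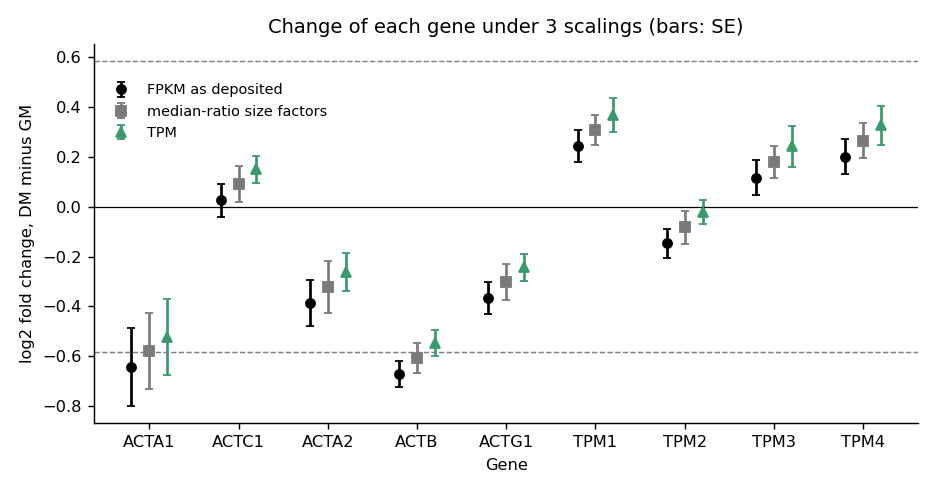
Log2 fold change of each gene, DM minus GM, with its SE from limma on FPKM as deposited, after division by median-ratio size factors, and as TPM, with dashed lines at 1.5-fold. ACTB and ACTA1 lay past the lower line on the deposited scale, ACTB alone after size factors and neither as TPM, where TPM1 stood at 0.37 and TPM4 at 0.33.

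The tropomyosins lay higher or close to even between the groups, with TPM2 as the one that was lower in DM. TPM1 lies at chr10:46993261-47022836 on the minus strand (ENSBTAG00000005373) and gave 768, 749 and 712 FPKM in GM and 905, 817 and 921 in DM. The groups did not overlap, and the log2 difference of 0.24 (SE 0.06, limma, Benjamini-Hochberg adjusted p = 0.015) was under 1.5-fold. A gene without a symbol, ENSBTAG00000040590, lies within TPM1 on the same strand at 7.17 to 7.77 FPKM in GM and 11.5 to 15.8 in DM, so reads of the pair may be shared.

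TPM2 lies at chr8:59856503-59864645 on the minus strand (ENSBTAG00000011424) and gave 703, 685 and 773 FPKM in GM and 653, 643 and 653 in DM. The GM libraries were above the DM libraries, with a log2 difference of -0.15 (SE 0.06, limma, Benjamini-Hochberg adjusted p = 0.076) and of -0.02 as TPM. TPM1 and TPM2 overlapped in GM, where their ratio was 1.04 ± 0.10, and stood apart in DM, where it was 1.36 ± 0.07 (SD, n = 3).

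TPM4, a tropomyosin of nonmuscle cells, was the most abundant of the 4 genes and lies at chr7:6898966-6924156 on the minus strand (ENSBTAG00000004553). It gave 1049, 1035 and 909 FPKM in GM and 1159, 1085 and 1194 in DM. The DM libraries were above the GM libraries by a log2 difference of 0.20 (SE 0.07, limma, Benjamini-Hochberg adjusted p = 0.052), and by 0.33 as TPM (adjusted p = 0.011). TPM3, at chr3:16318632-16346043 on the plus strand (ENSBTAG00000033217), was the least abundant tropomyosin, with 128, 128 and 111 FPKM in GM and 135, 125 and 139 in DM. Its groups overlapped, and the log2 difference was 0.12 (SE 0.07, limma, Benjamini-Hochberg adjusted p = 0.22), or 0.24 as TPM (adjusted p = 0.043).

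In order of mean FPKM the 9 genes ran ACTB, ACTA2, ACTG1, TPM4, ACTC1, TPM1, TPM2, TPM3 and ACTA1 in GM. The neighbors ACTA2 and ACTG1, TPM4 and ACTC1, TPM1 and TPM2, and TPM3 and ACTA1 overlapped in GM, while in DM TPM4 stood clear of ACTC1, TPM1 of TPM2 and TPM3 of ACTA1. ACTC1 and TPM1 overlapped in DM.

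The makeup of each family was described as shares of its summed FPKM. The 5 actins summed to 7887, 7801 and 8452 FPKM in GM and 5891, 6164 and 5989 in DM, a ratio of means of 0.748. The 4 tropomyosins summed to 2648, 2596 and 2504 FPKM in GM and 2852, 2669 and 2907 in DM, a ratio of 1.09. The actin sum was therefore 3.12 ± 0.22 times the tropomyosin sum in GM and 2.15 ± 0.14 times in DM (SD, n = 3), and this ratio does not depend on library scaling.

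Within the actins, the share of ACTC1 was 10.6% to 11.4% in GM and 14.4% to 15.5% in DM. The share of ACTB was 30.8% to 35.4% in GM and 27.5% to 28.4% in DM, and the ranges did not overlap for either gene. ACTA2, ACTG1 and ACTA1 held 27.8%, 26.6% and 1.37% of the actin FPKM in GM and 28.5%, 27.6% and 1.17% in DM, with ranges that overlapped for each. Within the tropomyosins, TPM1 held 28.8% in GM and 31.3% in DM, TPM4 38.6% and 40.8%, TPM2 27.9% and 23.1%, and TPM3 4.74% and 4.73%. Only the shares of TPM3 overlapped between the groups, and those of TPM4 lay close, at 36.3% to 39.9% in GM and 40.6% to 41.1% in DM. Such shares have no counterpart over all genes, but the FPKM of 54.1% of all tested genes did not overlap either.

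**Figure D3:**
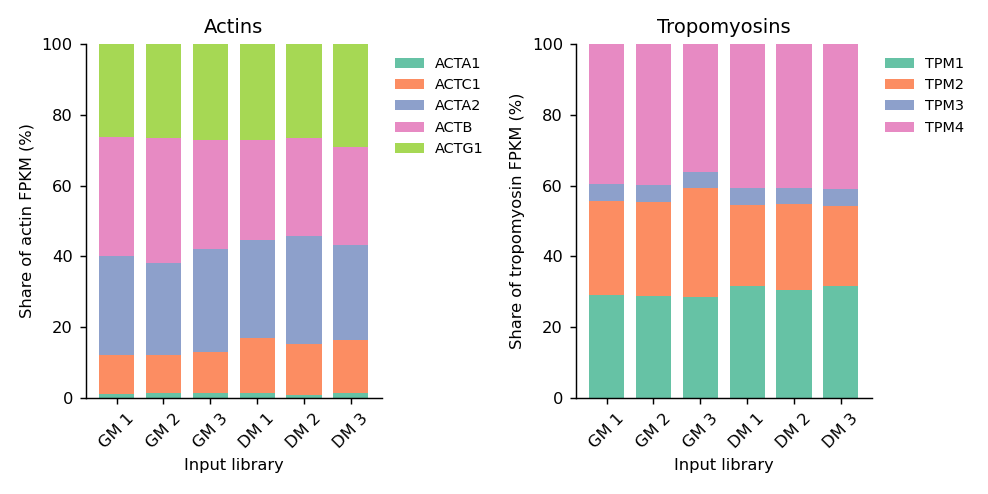
Share of each actin in the actin FPKM and of each tropomyosin in the tropomyosin FPKM, as stacked bars that sum to 100% in each of the 6 input libraries. The ACTC1 segment was wider in the 3 DM libraries (mean 14.9%) than in the 3 GM libraries (mean 11.0%), and the TPM2 segment was narrower (23.1% against 27.9%).

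All 16 pairs of genes within a family were compared by the log2 difference between the members in each library, which cancels library scaling. The groups did not overlap for 11 of 16 pairs, 6 of 10 actin pairs and 5 of 6 tropomyosin pairs. Over all pairs of tested genes 56.7% did not overlap, so separation of a pair was common. The difference of ACTC1 from ACTB was higher in DM by 0.70 on the log2 scale, the difference of ACTB from ACTG1 was lower by 0.30, and that of TPM1 from TPM2 was higher by 0.39. The difference of ACTA1 from ACTC1 was lower by 0.67. ACTA1 and ACTB, the genes called lower, did not separate from each other, at 0.03 (exact two-sided permutation p = 0.9). With 3 libraries against 3 the smallest exact two-sided p was 0.1, or 0.145 after Benjamini-Hochberg adjustment over the 16 pairs, so none could pass 0.05.

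Genes that work with the thin filament were described beside the actins and tropomyosins, with calls on the deposited FPKM only. Whether these calls hold as TPM was not tested. Of the sarcomeric thin filament partners, 11 of 18 tested genes were called higher and 0 lower, beside 4.9% and 6.97% of all tested genes. Their median log2 difference was 0.87. At an adjusted p under 0.05 and any fold 14 were higher and 1, ACTN3, was lower, beside 16.1% and 26.7% of all tested genes. ACTN3 gave 16.55 ± 0.91 FPKM in GM and 14.1 ± 0.63 in DM (SD, n = 3). The summed level of the list was 1112 to 1277 FPKM in GM and 2021 to 2095 in DM. The genes that rose include the leiomodins, which nucleate actin in the sarcomere, with LMOD3 at 7.11 ± 0.10 FPKM in GM and 28.0 ± 1.92 in DM (log2 difference 1.84, limma, Benjamini-Hochberg adjusted p = 3.9e-07) and LMOD2 at 3.31 ± 0.30 and 12.9 ± 0.97 (SD, n = 3). ACTN2, the alpha-actinin that anchors thin filaments at the Z-disc, gave 13.1 ± 0.61 FPKM in GM and 48.6 ± 4.87 in DM (SD, n = 3).

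Of the genes of actin filament turnover and branching, 0 of 30 were called higher and 2 lower, with a median of -0.20. The share called lower was near the 6.97% of all tested genes. At an adjusted p under 0.05 and any fold 5 were higher and 14 lower, beside 16.1% and 26.7% of all tested genes. The genes called lower were DIAPH3 and PFN1. DIAPH3, a formin that elongates filaments, was at 12.9 ± 0.78 FPKM in GM and 3.71 ± 0.24 in DM (SD, n = 3, log2 difference -1.56, limma, Benjamini-Hochberg adjusted p = 1.4e-06). PFN1, profilin, which loads actin monomers, was at 807 ± 44.2 and 534 ± 46.1 (SD, n = 3). Its log2 difference of -0.60 lay close to the 1.5-fold threshold. Of the stress fiber and smooth muscle type contractile genes, 0 of 18 were called higher and 2 lower, beside 4.9% and 6.97% of all tested genes. Their median was -0.23. At an adjusted p under 0.05 and any fold 10 were lower and 1, CALD1 (caldesmon), was higher, beside 26.7% and 16.1% of all tested genes. CALD1 gave 872 ± 38.4 FPKM in GM and 1126 ± 30.03 in DM (SD, n = 3). SMTN, smoothelin, gave 28.0 ± 2.17 FPKM in GM and 15.2 ± 0.99 in DM, and FHL2, a LIM protein of focal adhesions, gave 70.5 ± 9.87 and 40.95 ± 3.37 (SD, n = 3). Among the other actin family genes 0 of 9 were called by limma, and their median was -0.18. An adjusted p under 0.05 was reached by 5 of 9, beside 42.8% of all tested genes. An unadjusted one was reached by 7 of 9, beside 50.7%.

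By the m6A peak lists, 7 of 9 genes carried at least 1 peak in each group, and ACTA1 and ACTG1 had none listed in either. Among the 1231 genes that averaged 50 FPKM or more, as all 9 do, 63.2% had a peak in GM and 74.4% in DM, and among the 130 that averaged 500 FPKM or more, 49.2% and 60.0%. A peak is a region where immunoprecipitated RNA was enriched over input, and the fold enrichment is that ratio as the authors' caller gave it for the pooled libraries of a group. Each peak therefore has a single value per group with no error, and no test between the groups was possible.

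The 4 actin peaks of GM and the 5 of DM were each a single block annotated to a UTR, with a median fold enrichment of 1.71 in GM and 2.08 in DM. The tropomyosin peaks, 9 in GM and 10 in DM, had medians of 3.26 and 2.81, and all listed peaks had medians of 3.27 and 3.38. Peaks of genes with at least 500 FPKM had medians of 2.35 and 2.17, so weak enrichment was common among abundant transcripts. Peaks were called on uniquely mapped reads without duplicates, and the coding sequences of the actins are nearly alike. The part of shared sequence or of removed duplicates in these values was not tested.

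ACTC1 carried a 3′ UTR peak at chr10:30288637-30288876, with the same 240 bases in both lists and a fold enrichment of 2.96 in GM and 3.46 in DM. ACTA2 carried a 3′ UTR peak of 210 bases in GM and 269 in DM, at 1.69 and 2.08. ACTB had a pair of 3′ UTR peaks in each list, the first at 1.19 in GM and 1.39 in DM and the second, at the 3′ end of the gene, at 1.72 and 1.87. The first ACTB peak of GM was weaker than nearly all others, at percentile 0.4 of the fold enrichments of that list.

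The DM list alone held an ACTA2 peak of 120 bases at the 5′ end, chr26:10679311-10679430, with a fold enrichment of 9.58 and a false discovery rate of 0.041. FAS, on the opposite strand at 9.0 to 10.9 FPKM in DM, overlaps that end of ACTA2. The study's methods describe strand-specific libraries, but whether the counting used strand is not given in the sources used here. TPM1 likewise had a peak in DM alone, in the last 510 bases of its 3′ UTR at chr10:46993261-46993770, with a fold enrichment of 2.29. Of all 3′ UTR peaks, 41.6% in GM and 51.2% in DM ended within 30 bases of the 3′ end of their gene. The other 3′ UTR peak of TPM1 lay 6094 bases from the 3′ end in both lists, at 2.05 in GM and 1.89 in DM, and its exon peak was at 1.46 and 1.49.

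TPM2, TPM3 and TPM4 each carried a long peak spread over many exons. The TPM2 peak had 10 blocks and 1367 bases in both lists, at 3.50 in GM and 3.55 in DM. The TPM3 peak had 14 blocks in both lists, at 3.45 and 3.58, and the TPM4 peak had 7 blocks in GM and 9 in DM, at 3.26 and 2.93. Peaks of at least 7 blocks made up 3.29% of all peaks in GM and 4.64% in DM. Each of these peaks carries 1 annotation for all its blocks, to the 5′ UTR.

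The blocks of these long peaks also matched in length between the genes. Blocks of 134, 118, 71, 76 and 63 bases followed each other in this order, other blocks between them allowed, in all 6 long peaks of TPM2, TPM3 and TPM4. TPM2 and TPM3 shared 8 block lengths in order in each list. The blocks of a peak follow exons, and the tropomyosin genes are known to descend from a common ancestor and to keep much of its exon structure.

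**Figure D4:**
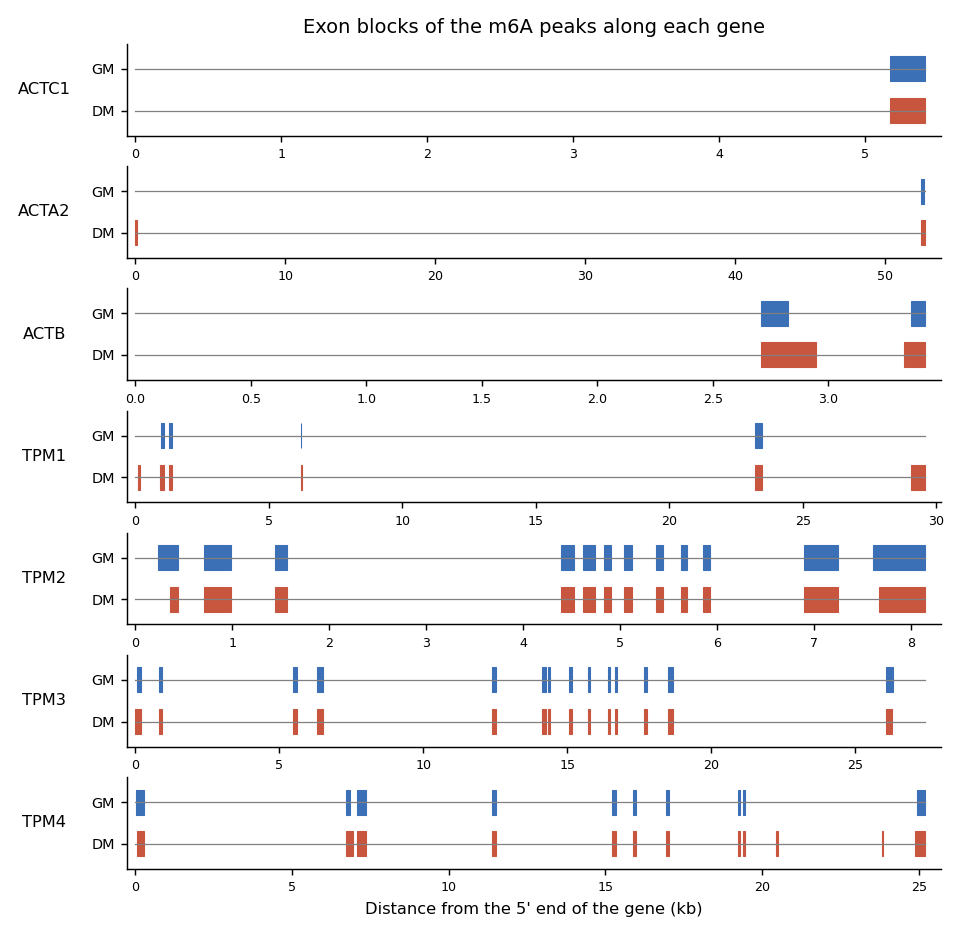
Exon blocks of the m6A peaks along each gene that carries one, drawn to scale by distance in kb from the 5′ end of the gene, with the GM and DM lists on separate rows. The actin peaks lie in the last part of their genes apart from the 5′ ACTA2 peak of DM, while the TPM2, TPM3 and TPM4 peaks of 7 to 14 blocks are spread over many exons.

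Every one of the 13 GM peaks paired with exactly 1 DM peak of the same gene. Over all genes, pairs of exactly 1 GM and 1 DM peak held 10239 of the 19739 GM peaks and of the 20790 DM peaks. Among the 13 pairs the fold enrichment was higher in DM for 8 and lower for 5, beside 56.5% of all 10239 such pairs that were higher. Only 1 of 13 pairs passed 1.5-fold, and it was lower, where 25.0% of all pairs passed, 10.8% lower and 14.2% higher. This pair was the short 5′ UTR peak of TPM2, at 8.17 in GM and 2.98 in DM, a log2 ratio of -1.46. It covered 208 bases in GM and 90 in DM, its false discovery rate was 0.00026 in GM and 0.069 in DM, and the pair was lost at a false discovery rate under 0.001. The median log2 ratio was 0.03 for the 13 pairs and 0.07 for all pairs.

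The actin pairs were all higher in DM, by log2 ratios of 0.12 to 0.30. In level, ACTB and ACTA2 were lower in DM and ACTC1 did not pass the test. The DM peak was wider than the GM peak in the ACTA2 pair and the ACTB pairs, so these ratios compare regions of unlike length. TPM4 held pairs of both directions, with its 3′ UTR peak at 2.14 in GM and 2.69 in DM and its long peak lower in DM. The 3′ UTR peak of TPM2 was at 4.73 in GM and 4.17 in DM, the highest 3′ UTR value of the 9 genes in both lists. Of the peaks of these genes, 7 of 13 in GM and 8 of 15 in DM were annotated to the 3′ UTR, beside 42.6% and 45.3% of all peaks.

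**Figure D5:**
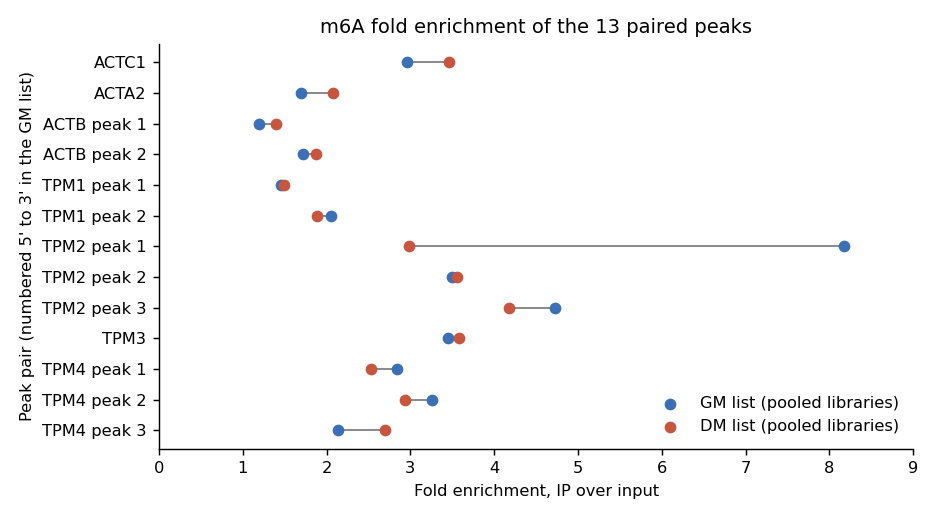
Fold enrichment of immunoprecipitated over input RNA for the 13 paired peaks, with the GM and DM value of each pair joined by a line and peaks numbered from the 5′ end. The first TPM2 pair moved from 8.17 to 2.98, and every other pair stayed within 1.5-fold.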

How the data were processed

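The 12 samples were 3 input and 3 immunoprecipitated libraries of each of the GM and DM groups. The deposited FPKM values were made by the authors with StringTie for the 6 inputs. Trimmomatic, HISAT2 and build ARS-UCD1.2, with Sambamba for unique, deduplicated alignments, are given in the study's methods. The submitters' processing notes name cutadapt and fastp for trimming and HOMER beside ChIPseeker. Peaks were called by the authors with exomePeak on pooled libraries, and each list holds a fold enrichment (a linear ratio), a deposited p-value and log10 forms of it. Read counts were not used here, so depth behind a value is unknown, and precision is the spread of 3 libraries.

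The expression model (limma 3.58.1, R 4.3.3) used a variance trend and log2 values after adding 1 to each FPKM, for the 12302 genes averaging 0.5 FPKM or more. limma replaced the count test of the study, since the unit was FPKM. All tested genes entered the Benjamini-Hochberg adjustment. The script was tested on simulated data. Peaks of the lists (Python 3.11.15; pandas 2.3.3; scipy 1.17.1; numpy 2.4.6) were paired by at least 1 shared base of exon blocks on the same strand, and matplotlib 3.10.9 drew the figures. The named genes are the 9 members, up to 3 called genes per direction of each list, and the 3 nearest genes by likeness. ACTG2, ACTN3, CALD1, MYH11, COL1A1, COL1A2, COL3A1, TCF21, MYOG, DES, MYMK, CDH15, CNN1, PDGFRB and the overlapping genes were named after their values were seen. Members and lists were chosen with earlier results of these data known. The term annotation in the gene table was not used, and sequences of the genes and peaks were not analysed here.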

Additional observations from a re-analysis of the deposited data

How the results depend on the processing

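Of 144 combinations of a gene and another setting, 136 kept their direction and side of the threshold, 7 lost the call and 1 reversed. ACTA1 lost its call as TPM (-0.52), after size factors (-0.58) and at a fold over 2 (-0.64), and ranged from -0.80 to -0.51 when single libraries were left out. ACTB lost its call as TPM (-0.55) and at a fold over 2 (-0.67), and ranged from -0.69 to -0.65. ACTC1 ranged from -0.019 to 0.0889, reversing without GM replicate 2. Calls lower among the 9 genes numbered 0 as TPM, 1 after size factors, 0 at a fold over 2 and 1 to 2 with a library left out. Over all genes, calls higher numbered 307 with a pseudocount of 5, 361 with a filter of 5 FPKM, 970 as TPM and 232 at a fold over 2, and calls lower 419, 471, 792 and 275, against 603 and 858. Of 112 combinations for pairs, 6 reversed, with ACTA1 minus ACTB at -0.12 to 0.17 and ACTA2 minus ACTG1 at -0.0938 to 0.0535 when single libraries were left out. Lower m6A pairs numbered 0 at a false discovery rate under 0.001 and 0 at 50% overlap of both peaks, and higher pairs by any amount numbered 4 at a fold enrichment of at least 2 and 5 after centering, against 8. Replicate numbers did not pair the libraries (correlations of -0.08, -0.12 and -0.21 between same-numbered ones, and no library correlated best with its own number). With the replicate block, ACTB stayed at -0.67 and ACTA1 at -0.64, and the calls numbered 608 higher and 865 lower over all genes and 2 lower among the 9. The sums had no pseudocount to change. FPKM without read counts sets no limit of detection for ACTA1 or for the absent peaks.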

Other observations

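The genes whose centered log2(FPKM + 1) lay closest to each actin or tropomyosin over the 6 input libraries were listed as a description, among 12293 tested genes. The distance is the root mean square of the differences between the centered values. ACTB lay closest to TXN (0.0182), VCAN (0.0186) and TET1 (0.0266), beside a median distance of 0.331 to all genes. TXN, thioredoxin, was at 486 FPKM in GM and 311 in DM, and VCAN, the matrix proteoglycan versican, at 83.5 and 51.9. ACTA1 lay closest to SDF2L1 (0.0834), MRPL33 (0.107) and RF00492 (0.117), so no tested gene followed it as closely as the nearest genes followed the other members. RF00492 was likewise low, at 1.23 FPKM in GM and 0.562 in DM. ACTA2 lay closest to RPL23A (0.024), WDR83OS (0.0286) and CSRP1 (0.0309), and CSRP1, a LIM protein that binds actin crosslinkers, was at 280.5 FPKM in GM and 223 in DM. ACTG1 lay closest to PDAP1, ISY1 and UFC1, and ACTC1 to RAB11FIP3, RNF121 and GMEB2. TPM1 lay closest to NXF1, ZNF177 and BTBD1, TPM2 to RRP9, TUBGCP3 and VPS25, TPM3 to CHD9, PPP3CC and KBTBD2, and TPM4 to KHDC4, CDC42SE2 and UTP6, all at 0.0117 to 0.0277 of their member.

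Markers of other cell types were also measured. Adipocyte markers summed to 1.21 to 1.36 FPKM in GM and 1.94 to 2.66 in DM, endothelial markers to 0.331 to 0.497 and 0.415 to 0.653, and immune markers to 1.03 to 1.84 and 1.01 to 2.01. COL1A1, a collagen of the fibroblast list, was at 6791 FPKM in GM and 7420 in DM. Of the 5 tested smooth muscle and pericyte markers, CSPG4 was called higher, at 3.07 FPKM in GM and 5.82 in DM, and NOTCH3 lower, at 2.13 and 0.854. The part of any such cells in the actin and tropomyosin values was not tested.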
